A study of Mus musculus with 12 samples.

Results

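The difference of the retinoic acid (RA) response between genotypes was measured in F9 cells, mouse teratocarcinoma cells that resemble the stem cells of the early embryo and take on endoderm features when given RA. Its members were all 12 arrays of the study, taken by their source labels as 4 groups of 3: cells labelled knockout for the RA receptor gene Rarg and given 1 µM RA for 24 h (KO_RA), the same knockout cells in the ethanol vehicle (KO_vehicle), wild-type cells in 1 µM RA for 24 h (WT_RA) and wild-type cells in vehicle (WT_vehicle). All groups grew in the same serum-containing medium. The labels name neither the knockout allele nor the number of clones behind the line. They also do not say whether replicate arrays stand for separate cultures, and the p-values cover the spread among the arrays, which may be technical. The quantity described is the RA change in knockout minus the RA change in wild type, each a difference of log2(signal + 16), here called the difference. It is positive where RA raised a transcript more, or lowered it less, in knockout, and negative in the opposite case.

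Retinoic acid enters the nucleus and binds retinoic acid receptors (RARs), which sit on DNA as pairs with retinoid X receptors and switch between recruiting corepressors and coactivators. F9 stem cells express pluripotency factors and growth factors of the early embryo, and RA turns these down while Hox genes, retinoid-degrading enzymes and endoderm genes are turned up. Rarg encodes the gamma form of the RARs, which other members of the family can replace at some target genes.

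Hybridization times put the arrays into 3 fluidics runs, and as every run held 1 array of each group, the run was a block in the fit. Titles of the run 1 samples carry letter codes, whereas the other runs carry number codes. The median signal was between 71.3 and 94.9 on 11 arrays and 143 on KO_vehicle replicate 3, which was also scanned 316 min after hybridization, against 13 to 238 min for the others. Calls of the difference and list medians are therefore also given without that array. All 8 F9 stem cell markers lay above the background level in every group, as did 10 of 11 markers of primitive and parietal endoderm. Summed over the 11 endoderm markers, signal was 13240 to 38974 in KO_RA and 11275 to 35524 in KO_vehicle, against 67649 to 87865 in WT_RA and 73805 to 79618 in WT_vehicle. For 6 visceral endoderm markers the sums were 339 to 3064 in KO_RA and 609 to 2971 in KO_vehicle, against 12926 to 19649 in WT_RA and 16901 to 22589 in WT_vehicle. Of these 6, Dab2 and Cubn were above background in every group and carried the sums, the group means of Afp, Ttr and Apoa1 were below 88.3 in every group, and those of Hnf4a lay between 77.2 and 90.1. These sums stood apart by genotype and overlapped by treatment in both genotypes, none of these endoderm markers was called for the difference, and the part of this gap in the results below was not tested. In bulk RNA, fewer cells of a type and less RNA per cell cannot be told apart.

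Rarg itself had signals of 1549.6, 1495 and 1026 in KO_RA and 1716, 1672 and 1521 in KO_vehicle, against 1232, 1027 and 1471 in WT_RA and 1356, 1263 and 1809 in WT_vehicle. The genotypes overlapped, and the difference was -0.05 ± 0.24 (SE), adjusted p = 0.978, with a 95% interval of -0.54 to 0.45. A second Rarg probe set had 1018, 942 and 942 in KO_RA and 915, 1234 and 1033 in KO_vehicle, against 732, 657 and 823 in WT_RA and 896, 796 and 1343 in WT_vehicle. Its KO_RA arrays all lay above the WT_RA arrays, and its difference was 0.30 ± 0.23 (adjusted p = 0.807). Where the probes lie relative to the deleted part was not given, so these signals do not check the genotype labels.

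Few transcripts were called for a different RA change in the 2 genotypes. The threshold was an adjusted p of 0.05 in limma with Benjamini-Hochberg adjustment over 45037 probe sets. The difference was called for 22 probe sets (0.0488% of those tested), 10 higher (0.0222%) and 12 lower (0.0266%). Their sizes lay between 1.00 and 5.71 on the log2 scale. Of the 22, 18 carry 1 gene symbol and belong to 17 genes, 3 carry several symbols and 1 carries none, and these last 4 are given by probe set only. Over genes, each by its brightest probe set, 8 were higher (0.044%) and 8 lower (0.044%) of 18193.

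The called set holds stem cell genes that RA lowered in wild type, namely Tdgf1, Fgf4, Utf1 and Tcea3, and genes that RA raised in wild type, among them Gpr50, Sfrp5, Sox4, Pik3r1 and Slc26a2. For comparison, RA alone was called for 136 probe sets in knockout (0.302%) and 949 in wild type (2.11%), and genotype alone for 4466 under RA (9.92%) and 4235 in vehicle (9.4%). RA was called for 4 of the 22 probe sets in knockout, and for 19 of the 22 in wild type, 12 upwards and 7 downwards. These contrasts are built from the same arrays as the difference and describe its shape. In 17 of the 22, RA passed the test in wild type alone. The other 5 were Lifr, Pla2g7, Pcbd1, Dusp6 and probe set 1420565_at.

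All 22 had the same sign in each of the 3 runs taken alone, against 27.9% of all probe sets, which the call itself favours. Without KO_vehicle replicate 3, all 22 kept their direction but 2 of them kept their call, Tdgf1 and Gpr50, and these were the 2 calls made of 45037 (0.00444%). The other 20 had an adjusted p between 0.0728 and 0.175 without that array. Among the higher ones, Fgf4 was then 0.99, Utf1 0.94, Tcea3 0.96, Dusp6 0.82, Prorp 0.98, 1444292_at 1.20, Pcbd1 1.57 and 1420565_at 1.21. Among the lower ones, Lifr was -1.19, Pla2g7 -1.81, Sox4 -0.96, Sfrp5 -2.34, Pik3r1 -1.22, Esyt3 -1.59, Tbca -2.24, Slc26a2 -1.24 and -1.17, 1420603_s_at -1.89 and 1455002_at -1.10. With no run block, no probe set was called. An unadjusted p under 0.05 was then found for 2084 of the 45037 tested (3186 with the block). Unchanged probe sets pass that threshold at a rate of 0.05. Tdgf1 alone kept its call in each of the 12 fits that left out 1 array. Those fits called 18 without WT_vehicle replicate 3, 15 without KO_RA replicate 1 and 2 to 13 without any other array.

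**Figure D1:**
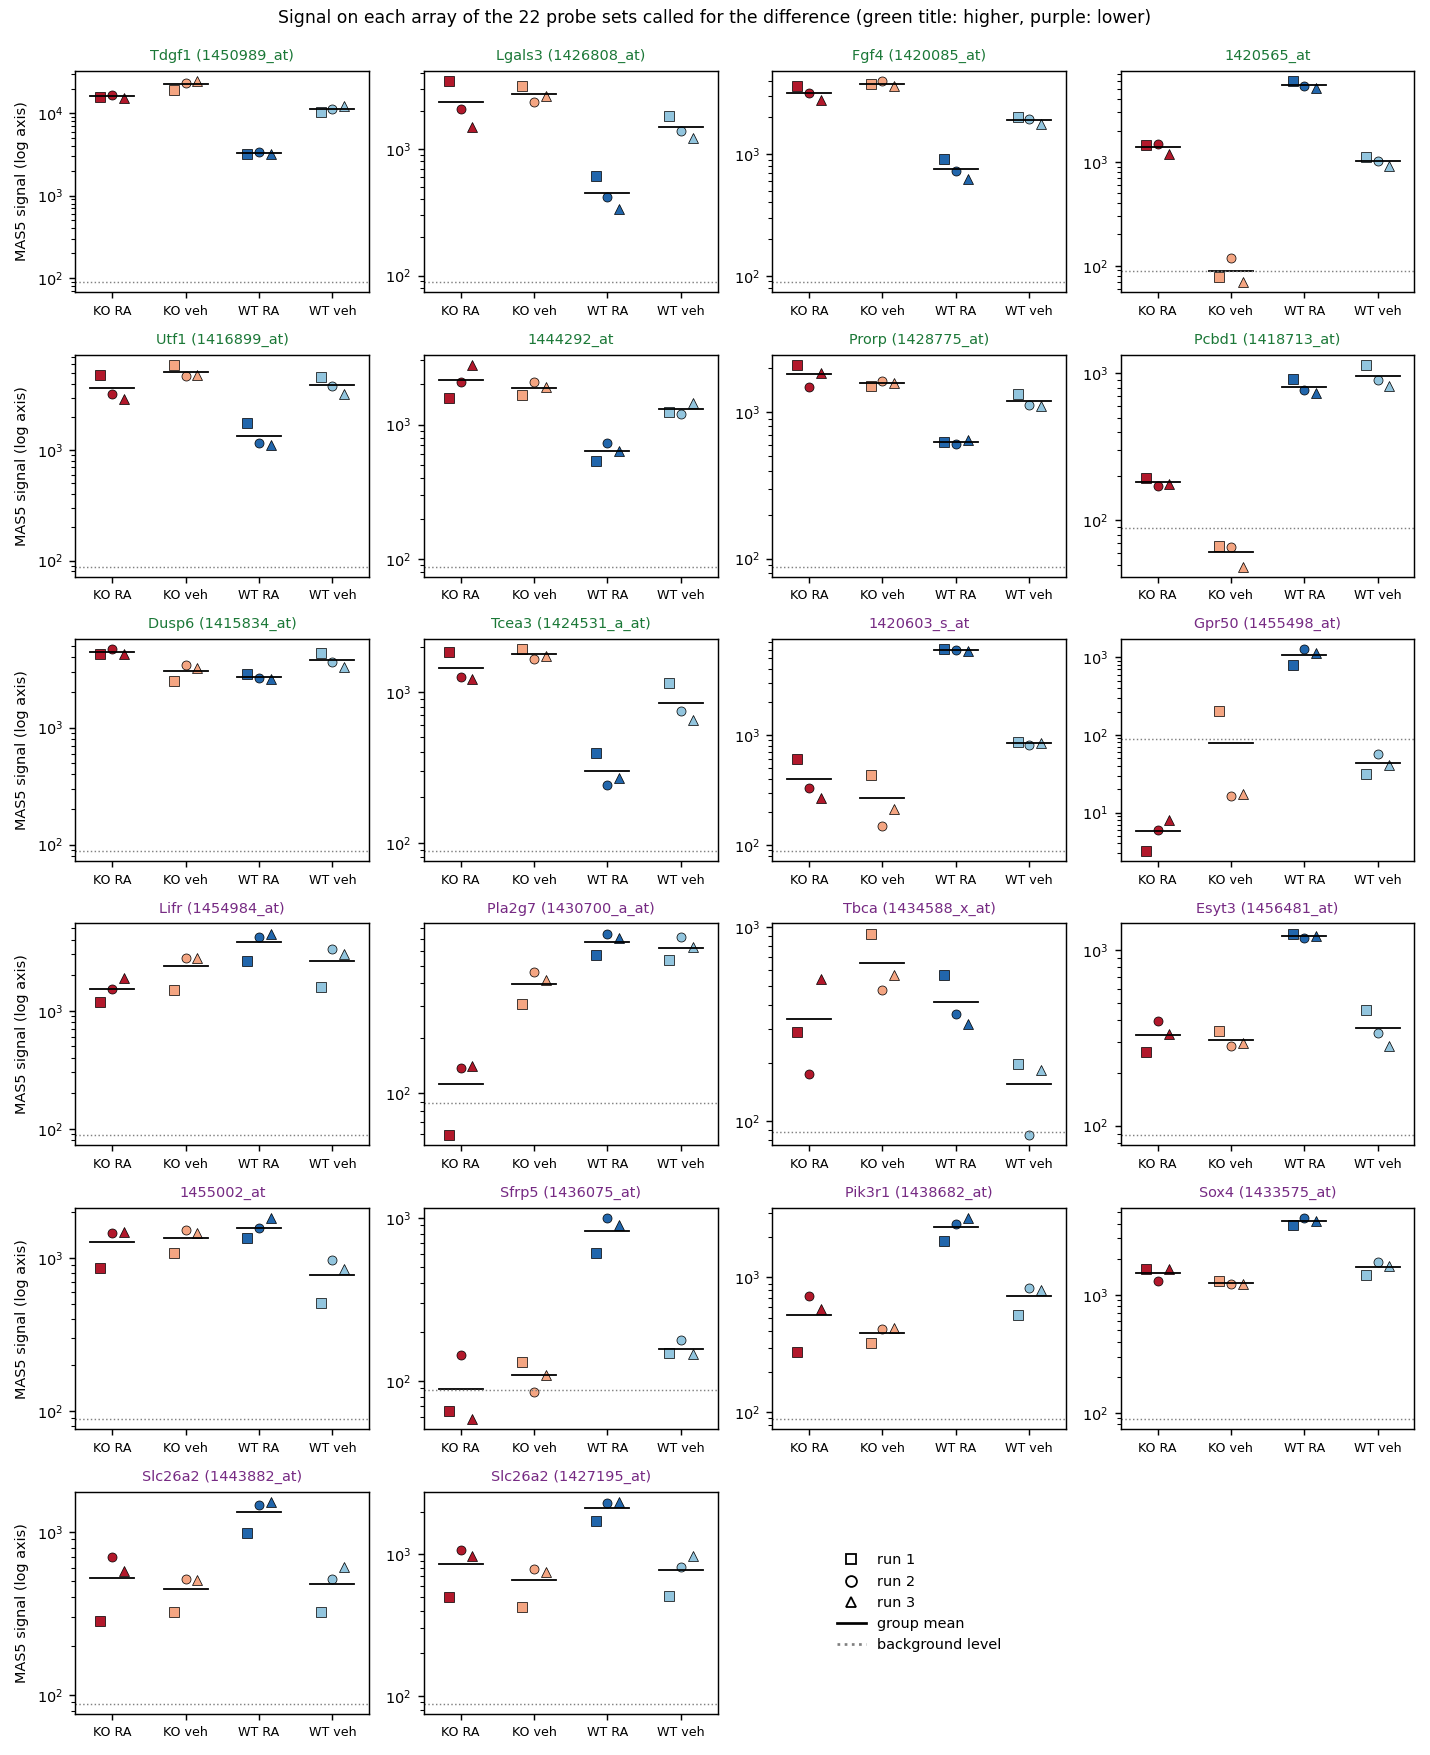
MAS5 signal (log axis) on each of the 12 arrays for the 22 called probe sets, in the groups KO RA, KO vehicle, WT RA and WT vehicle from left to right. Squares, circles and triangles are runs 1, 2 and 3, the line is the group mean, and the dotted line is the background level at a signal of 88.3. In 20 of 22 panels KO RA and WT RA do not overlap, against 22.5% of all probe sets, which the call itself favours.

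Stretches around the transcription start of 6 called genes are shown, 3 with a higher and 3 with a lower difference, since they are the windows in which a receptor half-site could be looked for. They come from RefSeq (build GRCm38.p6), run 5′ to 3′ on the gene's strand from 250 bases before to 50 bases after the start, and carry in capitals the receptor half-site AGGTCA, its form with T at the inner position, AGTTCA, and the same pair with G in front, GGGTCA as well as GGTTCA, on either strand. The Tdgf1 window lies at chr9:110946109-110946408 on the minus strand, that of Fgf4 at chr7:144861136-144861435 on the plus strand and that of Utf1 at chr7:139943606-139943905 on the plus strand. The Gpr50 window lies at chrX:71663417-71663716 on the plus strand, that of Sox4 at chr13:28953650-28953949 and that of Sfrp5 at chr19:42202203-42202502, both on the minus strand.
Tdgf1: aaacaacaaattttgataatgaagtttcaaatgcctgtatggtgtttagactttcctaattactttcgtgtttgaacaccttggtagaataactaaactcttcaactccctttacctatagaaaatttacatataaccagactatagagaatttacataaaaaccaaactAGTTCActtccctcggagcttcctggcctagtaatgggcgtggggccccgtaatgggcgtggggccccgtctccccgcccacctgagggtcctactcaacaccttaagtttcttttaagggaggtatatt
Fgf4: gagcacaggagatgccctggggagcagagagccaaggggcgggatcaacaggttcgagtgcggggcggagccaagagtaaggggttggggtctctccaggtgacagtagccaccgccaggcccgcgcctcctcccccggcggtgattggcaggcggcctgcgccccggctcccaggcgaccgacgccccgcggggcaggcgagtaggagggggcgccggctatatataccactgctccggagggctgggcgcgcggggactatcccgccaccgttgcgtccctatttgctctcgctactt
Utf1: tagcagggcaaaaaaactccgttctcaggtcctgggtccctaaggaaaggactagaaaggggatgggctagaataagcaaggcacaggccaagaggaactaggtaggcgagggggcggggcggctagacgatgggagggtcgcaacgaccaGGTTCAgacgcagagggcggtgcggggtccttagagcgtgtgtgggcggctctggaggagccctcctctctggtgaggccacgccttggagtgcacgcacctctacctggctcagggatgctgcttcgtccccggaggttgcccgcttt
Gpr50: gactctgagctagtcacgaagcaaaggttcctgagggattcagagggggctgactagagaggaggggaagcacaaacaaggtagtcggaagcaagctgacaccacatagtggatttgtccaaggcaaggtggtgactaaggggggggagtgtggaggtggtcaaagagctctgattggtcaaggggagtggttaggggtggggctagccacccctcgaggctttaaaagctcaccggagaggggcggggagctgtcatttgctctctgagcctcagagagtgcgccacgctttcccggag
Sox4: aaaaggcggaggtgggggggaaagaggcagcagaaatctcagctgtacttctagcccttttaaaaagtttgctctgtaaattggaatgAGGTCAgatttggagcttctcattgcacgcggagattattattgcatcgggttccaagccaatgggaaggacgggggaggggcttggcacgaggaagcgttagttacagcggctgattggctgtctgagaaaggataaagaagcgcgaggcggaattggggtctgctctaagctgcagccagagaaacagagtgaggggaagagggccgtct
Sfrp5: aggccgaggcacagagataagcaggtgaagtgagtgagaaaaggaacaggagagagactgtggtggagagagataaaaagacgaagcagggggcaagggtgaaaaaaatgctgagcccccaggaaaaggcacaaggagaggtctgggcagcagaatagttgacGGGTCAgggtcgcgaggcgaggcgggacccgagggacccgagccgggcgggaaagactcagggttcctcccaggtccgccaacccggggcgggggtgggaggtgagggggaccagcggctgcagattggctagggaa
The table held 16 of the 17 called genes with 18 windows. A half-site was in 10 of the 18 windows (55.6%), against 43.7% of all 32851 windows, 4 of 8 for genes with a higher and 6 of 10 for genes with a lower difference. AGGTCA alone was in 3 of 18 (16.7%), against 16.3% of all. No window held 2 such half-sites in a row spaced by 1, 2 or 5 bases, which 0.588% of all windows did, and none held the octamer ATGCAAAT on either strand, which 1.74% of all did. Of the 6 windows shown, those of Tdgf1, Utf1, Sox4 and Sfrp5 hold 1 half-site each, and those of Fgf4 and Gpr50 hold none.

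Among the stem cell genes, Tdgf1, which encodes the Nodal coreceptor Cripto, had the smallest adjusted p. Its signal was 16868, 15517 and 15960.0 in KO_RA and 23056, 24908 and 19283 in KO_vehicle, against 3406, 3217 and 3229.7 in WT_RA and 11405, 12209 and 10327 in WT_vehicle. Every knockout array was above every wild-type array, and RA arrays lay below vehicle arrays in both genotypes. The RA change was -0.47 ± 0.11 in knockout (SE, adjusted p = 0.0964) and -1.78 ± 0.11 in wild type (adjusted p = 2.6e-09), so that vehicle exceeded RA 1.39-fold in knockout and 3.44-fold in wild type. The difference was 1.31 ± 0.16 (adjusted p = 0.00188), with 1.40, 1.29 and 1.24 in runs 1, 2 and 3, and it was 1.23 (adjusted p = 0.0228) without KO_vehicle replicate 3.

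Fgf4, a growth factor of the early embryo that acts through FGF receptors and ERK, had 3186, 2752 and 3629 in KO_RA and 3997, 3619 and 3725 in KO_vehicle, against 725, 622 and 907 in WT_RA and 1939, 1765 and 2023 in WT_vehicle. The 2 knockout groups overlapped by 1 array, and WT_RA was below all other groups. The difference was 1.09 ± 0.17 (adjusted p = 0.0116) and lay between 1.07 and 1.11 in the 3 runs, the narrowest spread over runs of the 22. Its other 3 probe sets gave 0.75, 0.34 and 0.97, with adjusted p between 0.122 and 0.814. The value of 0.97 came from a probe set with all group means below background, and it was -1.06 in run 1 and 2.43 in run 2.

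Utf1, a chromatin-associated factor of undifferentiated embryonic cells, had 3266, 2922 and 4793 in KO_RA and 4692, 4810.5 and 5921 in KO_vehicle, against 1155, 1115 and 1761 in WT_RA and 3785, 3213 and 4631 in WT_vehicle. The RA change was -0.51 ± 0.11 in knockout (adjusted p = 0.0544) and -1.53 ± 0.11 in wild type (adjusted p = 2.15e-08). Its difference was 1.02 ± 0.16 (adjusted p = 0.0116). Knockout minus wild type was 1.43 under RA and 0.41 in vehicle (adjusted p = 0.0209). A second probe set of Utf1 gave 0.92 (adjusted p = 0.684). The remaining probe set, with all group means below background, gave -1.08 (adjusted p = 0.838).

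Tcea3, a member of the transcription elongation factor SII family, had 1262, 1209.9 and 1827 in KO_RA and 1662, 1735 and 1919.6 in KO_vehicle, against 240.0, 269 and 393 in WT_RA and 746, 650.0 and 1148 in WT_vehicle. The knockout groups overlapped and the wild-type groups did not. The difference was 1.11 ± 0.21 (adjusted p = 0.0453), the highest adjusted p among the called, and the call was lost in every fit that left out 1 array.

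Lgals3, which encodes the sugar-binding lectin galectin-3, had 2091, 1497 and 3475 in KO_RA and 2379, 2610.2 and 3133 in KO_vehicle, against 414, 338 and 608 in WT_RA and 1402, 1228 and 1823 in WT_vehicle. The RA value in knockout was -0.28 ± 0.15 (adjusted p = 0.653), and the fall in wild type was called (-1.70 ± 0.15, adjusted p = 2.25e-07). Its difference of 1.42 ± 0.21 (adjusted p = 0.00761) held in 11 of 12 fits without 1 array. It did not hold without KO_vehicle replicate 3, where it was 1.30 (adjusted p = 0.0728).

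Prorp, the nuclease subunit of mitochondrial RNase P, had 1477, 1854 and 2105 in KO_RA and 1631, 1596 and 1515 in KO_vehicle, against 612, 642 and 628 in WT_RA and 1119, 1099 and 1342 in WT_vehicle. It was the only probe set lowered by RA in wild type whose vehicle groups were not called apart (adjusted p = 0.0574), and its difference was 1.08 ± 0.19 (adjusted p = 0.0336). Probe set 1444292_at moved alike, with a difference of 1.17 ± 0.20 (adjusted p = 0.0295).

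Dusp6, a phosphatase that takes phosphate off ERK, had 4680.3, 4291 and 4238 in KO_RA and 3427, 3225 and 2483 in KO_vehicle, against 2659, 2622 and 2894 in WT_RA and 3623, 3329 and 4351 in WT_vehicle. KO_RA lay above KO_vehicle on every array and WT_RA below WT_vehicle on every array. Neither change passed on its own, with 0.54 ± 0.13 in knockout (adjusted p = 0.0962) and -0.46 ± 0.13 in wild type (adjusted p = 0.0755). The difference, 1.00 ± 0.18, was called (adjusted p = 0.0414), and the call was lost in each fit without 1 array.

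Gpr50, an orphan receptor related to the melatonin receptors, had the largest difference of the 22. Its signal was 5.87, 8.04 and 3.21 in KO_RA and 16.2, 17.4 and 202 in KO_vehicle, against 1271, 1133 and 805 in WT_RA and 56.2, 41.2 and 31.8 in WT_vehicle. Only WT_RA, and KO_vehicle replicate 3, stood above the background level of 88.3, so that WT_RA was at least 12.1-fold above KO_RA and above WT_vehicle. The fitted difference was -5.71 ± 0.83 (adjusted p = 0.00761), with -7.61, -4.71 and -4.80 in runs 1, 2 and 3, and it was -4.66 (adjusted p = 0.0244) without KO_vehicle replicate 3. The size of these fitted values depends on signals below background, and the 12.1-fold bound does not. A further probe set of Gpr50 gave -3.77 (adjusted p = 0.0866).

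Sfrp5, a secreted inhibitor of Wnt ligands, had 144, 57.9 and 65.2 in KO_RA and 85.5, 109 and 129.9 in KO_vehicle, against 1001, 899.6 and 606 in WT_RA and 177, 145 and 148 in WT_vehicle. WT_RA was above every other array, and KO_RA was above the background level on 1 of 3 arrays, so that no fold over it is given. The difference was -2.59 ± 0.44 (adjusted p = 0.0269), and its second probe set gave -2.67 (adjusted p = 0.455).

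Sox4, a transcription factor of the SoxC group, had 1302, 1643 and 1658 in KO_RA and 1243, 1233 and 1309 in KO_vehicle, against 4484, 4229.7 and 3868 in WT_RA and 1897, 1754 and 1469.8 in WT_vehicle. The RA value in knockout was 0.27 ± 0.13 (adjusted p = 0.613), and RA raised it 2.46-fold in wild type (1.29 ± 0.13, adjusted p = 2.15e-06). The difference was -1.02 ± 0.18 (adjusted p = 0.036). The 7 further probe sets of Sox4 gave values between -1.50 and -0.04, and none was called.

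Pik3r1, the p85 alpha regulatory subunit of phosphoinositide 3-kinase, had 724, 584 and 281 in KO_RA and 416, 421 and 329 in KO_vehicle, against 2469.8, 2767 and 1863 in WT_RA and 837, 803 and 526 in WT_vehicle. The wild-type groups stood apart and the knockout groups overlapped. Its difference was -1.36 ± 0.24 (adjusted p = 0.0311), but it was -2.01 in run 1 and -0.77 in run 2. The other 3 probe sets gave -1.77, -1.15 and -1.34, with adjusted p between 0.282 and 0.679.

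Slc26a2, a sulfate transporter of the cell surface, was called by 2 probe sets. The brighter had 1079, 965 and 500.2 in KO_RA and 792, 751 and 425 in KO_vehicle, against 2305, 2333 and 1708 in WT_RA and 819, 979 and 509.7 in WT_vehicle. The vehicle groups overlapped, and WT_RA was above all other arrays. The differences were -1.14 ± 0.21 and -1.30 ± 0.23 (both adjusted p = 0.036), and the third probe set gave -1.09 (adjusted p = 0.565).

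Esyt3, which belongs to the extended synaptotagmins that tether the endoplasmic reticulum to the plasma membrane, had 393, 334 and 264 in KO_RA and 286, 296 and 347 in KO_vehicle, against 1179.8, 1207 and 1243 in WT_RA and 336, 286 and 459 in WT_vehicle. The 3 groups other than WT_RA overlapped one another. The difference was -1.65 ± 0.28 (adjusted p = 0.0249), with an RA value of 0.08 ± 0.20 in knockout and 1.73 ± 0.20 in wild type.

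Probe set 1420603_s_at had 333, 268 and 601 in KO_RA and 149, 213 and 434 in KO_vehicle, against 5931, 5783 and 6053 in WT_RA and 809, 851 and 872 in WT_vehicle. It was lower in knockout in vehicle already, and WT_RA was 14.8-fold above KO_RA. Its difference of -2.17 ± 0.30 (adjusted p = 0.00704) held in 11 of 12 fits without 1 array. For 1455002_at, the knockout vehicle arrays were above the wild-type ones while the RA groups overlapped, and its difference was -1.16 ± 0.20 (adjusted p = 0.0258).

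Tbca, a tubulin folding cofactor, was called by 1 of its 4 probe sets. That probe set had 176, 541 and 290.1 in KO_RA and 473, 567 and 930.4 in KO_vehicle, against 358, 316 and 569.7 in WT_RA and 85, 184 and 197 in WT_vehicle, and a difference of -2.37 ± 0.39 (adjusted p = 0.0172). The other 3 probe sets of Tbca gave 0.19, 0.11 and 0.03, with adjusted p between 0.816 and 0.979. The call therefore rests on the dimmest of the 4, which also had -3.24 in run 2 and -0.80 in run 3.

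Lifr, the receptor of leukaemia inhibitory factor, was called for RA in both genotypes in opposite directions. Its signal was 1516, 1904 and 1194 in KO_RA and 2807, 2819.7 and 1491 in KO_vehicle, against 4241, 4512 and 2639 in WT_RA and 3307, 3034 and 1605 in WT_vehicle. Groups overlapped because the arrays of run 1 were lower in all 4, and within each run KO_RA was below KO_vehicle and WT_RA above WT_vehicle. RA lowered it by 0.59 ± 0.13 in knockout (adjusted p = 0.0411) and raised it by 0.55 ± 0.13 in wild type (adjusted p = 0.0189), which gave a difference of -1.13 ± 0.18 (adjusted p = 0.0116). Its dimmer probe sets gave 0.12 and -0.91 (adjusted p = 0.974 and 0.748).

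Pla2g7, an enzyme that hydrolyses platelet-activating factor, had 138, 141 and 58.9 in KO_RA and 459, 417 and 307 in KO_vehicle, against 750.2, 705 and 573 in WT_RA and 717, 633 and 534 in WT_vehicle. It fell 3.5-fold under RA in knockout (-1.73 ± 0.20, adjusted p = 5.92e-05), and the wild-type value was 0.10 ± 0.20 (adjusted p = 0.949). The KO_RA array at 58.9 was below the background level, so that the size of the knockout fall depends on signals near background. The difference was -1.84 ± 0.29 (adjusted p = 0.0116).

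Pcbd1, an enzyme that recycles the tetrahydrobiopterin cofactor, had 173, 178 and 193 in KO_RA and 66.2, 48.6 and 67.1 in KO_vehicle, against 776, 737 and 921 in WT_RA and 901, 819.6 and 1139 in WT_vehicle. KO_vehicle was below background on all 3 arrays, so that KO_RA was at least 2.05-fold higher. The knockout groups did not overlap the wild-type ones at either treatment. Its difference was 1.59 ± 0.29 (adjusted p = 0.036), and the call was lost in each fit without 1 array.

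Probe set 1420565_at was the only one of the 22 called for a rise under RA in both genotypes. It had 1491, 1195 and 1462 in KO_RA and 119, 69.2 and 78 in KO_vehicle, against 5401, 5134 and 6028 in WT_RA and 1007, 919 and 1104 in WT_vehicle. The rise was 3.76 in knockout and 2.43 in wild type on the log2(signal + 16) scale, while the level reached stayed lower in knockout. KO_vehicle was above the background level on 1 of 3 arrays, so that the size of the knockout rise depends on signals near background. The difference was 1.33 ± 0.21 (adjusted p = 0.0116), but it was not called with a pseudocount of 64 (0.87, adjusted p = 0.118) or after quantile normalization (1.45, adjusted p = 0.166).

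**Figure D2:**
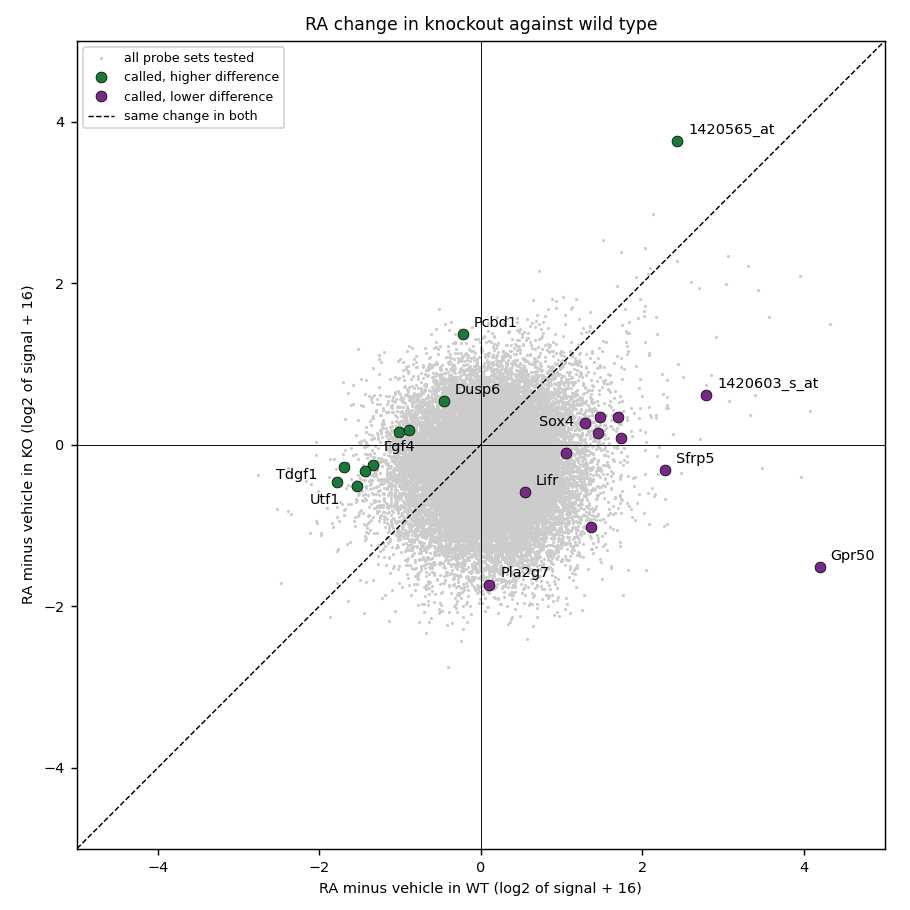
RA minus vehicle in WT (horizontal) against RA minus vehicle in KO (vertical), both as log2 of signal + 16, for 45037 probe sets in grey and the 22 called in green (higher difference) or purple (lower). Gpr50 lies farthest from the dashed line of equal change, with -1.51 in KO and 4.20 in WT. Of the 22, 1420565_at alone was also called for a rise under RA in both genotypes.

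**Figure D3:**
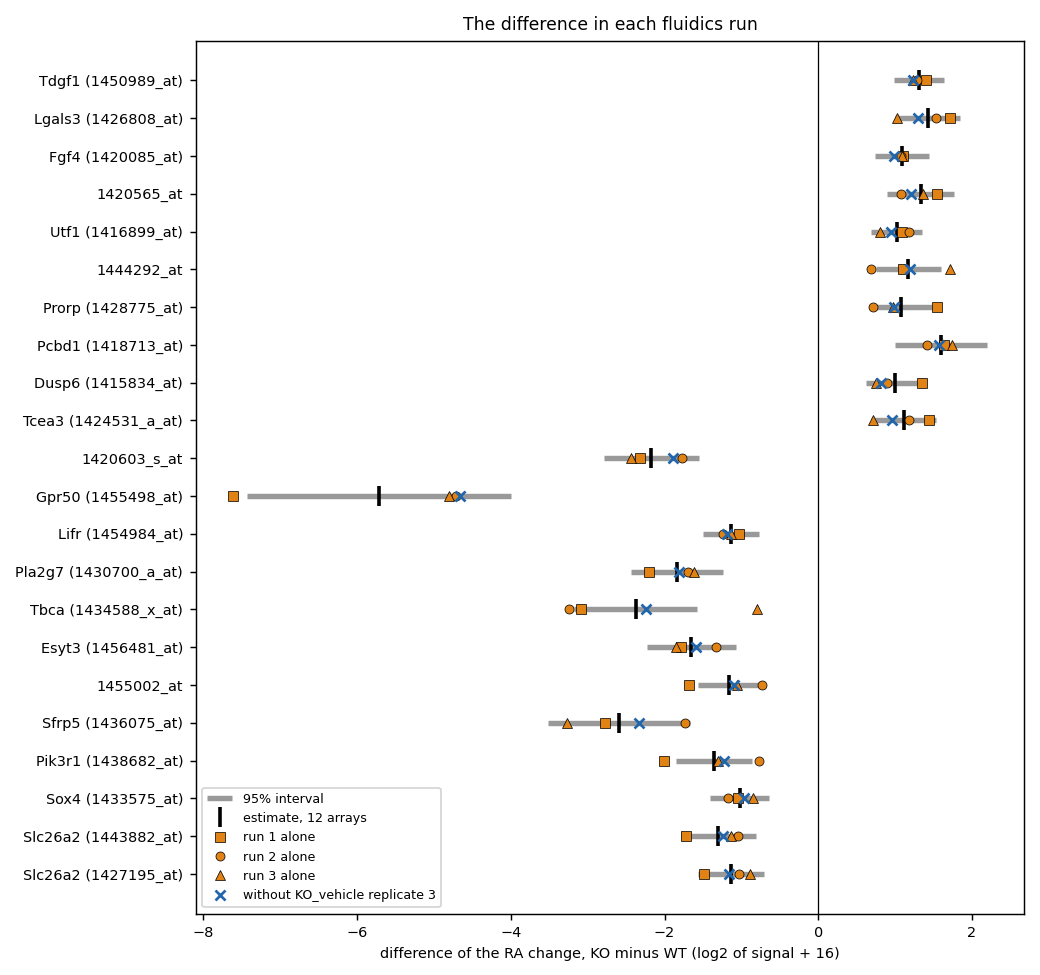
Difference of the RA change (log2 of signal + 16, KO minus WT) for the 22 called probe sets: estimate (black tick), 95% interval (grey), each run alone (orange) and the fit without KO_vehicle replicate 3 (blue cross). All orange symbols lie on the same side of 0 as the estimate, with the widest spread for Gpr50, from -7.61 to -4.71, and Tbca, from -3.24 to -0.80.

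The 10 genes next in order of p were not called. Each was taken by its probe set with the smallest p, which need not be its brightest. Odc1, the first enzyme of polyamine synthesis, gave 0.85 (adjusted p = 0.0522), with 1691, 1682 and 1874 in KO_RA and 2052, 2013 and 2246 in KO_vehicle, against 1238, 1087 and 1172 in WT_RA and 2414, 2403 and 2849.6 in WT_vehicle. Hoxa4 gave -4.36 (adjusted p = 0.0694), and its signal was 375 to 392 in WT_RA and at or below 114 in the other 3 groups. The means of those 3 groups were below background, which limits the fitted size. Dact1, which binds Dishevelled in Wnt signalling, gave -1.87 (adjusted p = 0.08), and Spry4, an inhibitor of receptor tyrosine kinase signalling, gave 1.10 (adjusted p = 0.0761). The brightest probe set of Spry4 gave 0.86. The others were Marcks at -1.14, Mgarp at -1.08, Adam23 at 2.09, Mylpf at 0.80, Stc2 at 1.01 and Atg7 at -3.61, with adjusted p between 0.0825 and 0.0848, and all Atg7 signals were below 88.3.

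The Hox genes of groups 1 to 5, which pattern the anterior body and are classical RA targets, had no call for the difference among 13 measured. Their median difference was -1.51, against -0.10 over all genes, and without KO_vehicle replicate 3 it was -1.31, against -0.02. With all 12 arrays, 8 of the 13 had an unadjusted p under 0.05 on the lower side (5.15% of all genes). The median RA change was 0.28 in knockout and 2.43 in wild type, with RA called for 1 member in knockout (0.495% of all genes) and 8 in wild type (3.35% of all genes). Hoxb2 had 149, 62.9 and 187 in KO_RA and 60, 17.8 and 29.7 in KO_vehicle, against 617, 523 and 933 in WT_RA and 14.4, 11.2 and 32.4 in WT_vehicle, and a difference of -2.83 (adjusted p = 0.109). Only WT_RA was above the background level on all 3 arrays. Hoxb3 gave -2.84 (adjusted p = 0.109) and Hoxb1 -2.79 (adjusted p = 0.295). For Hoxb3, the means of KO_RA and WT_vehicle were below background, which limits the fitted size. Hoxa5 was called for RA in both genotypes, with 1.94 in knockout and 2.70 in wild type, and its difference was -0.76 (adjusted p = 0.727). Cdx1, a homeobox gene that acts upstream of Hox genes, gave -3.66 (adjusted p = 0.0953). Its means in KO_RA, KO_vehicle and WT_vehicle were below background, so that the fitted size depends on those dim signals.

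Of 32 retinoid metabolism and target genes, none was called for the difference. RA was called for 8 in knockout, all upwards (0.495% of all genes in either direction). In wild type it was called for 11 upwards and 1 downwards (3.35% of all genes in either direction). Rarb, the beta receptor gene and a direct RAR target, had 486, 554 and 353 in KO_RA and 87.7, 66.8 and 80.3 in KO_vehicle, against 1955, 2158 and 1542 in WT_RA and 222, 231 and 180.0 in WT_vehicle. RA raised it in both genotypes (2.33 in knockout and 3.06 in wild type), and its difference was -0.73 (adjusted p = 0.669). Cyp26a1, which degrades RA, gave -1.05 (adjusted p = 0.563) with RA changes of 1.99 in knockout and 3.03 in wild type. Cyp26b1, of the same enzyme family, was below background in the means of KO_RA, KO_vehicle and WT_vehicle, so that WT_RA was at least 3.34-fold above KO_RA and above WT_vehicle. Its fitted difference of -2.97 (adjusted p = 0.289) depends on those dim signals. The list's median was -0.40, but it was -1.01 in run 1 and -0.02 and -0.18 in runs 2 and 3, and without KO_vehicle replicate 3 it was -0.09.

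Of 47 pluripotency genes, 4 were called higher (0.044% of all genes) and none lower, and the median difference was 0.24. These were Tdgf1, Fgf4, Utf1 and Tcea3. Without KO_vehicle replicate 3 the median was 0.15, and Tdgf1 alone of the 4 kept its call. Among those not called, Eras, a Ras-like protein of embryonic stem cells, gave 0.94 (adjusted p = 0.109), Sox2 gave 0.67 (adjusted p = 0.29) and Otx2 gave 0.89 (adjusted p = 0.452). In wild type RA was called lower for 18 of the 47 (1.56% of all genes), and unadjusted p on the higher side of the difference was under 0.05 for 15 (31.9%, against 3.14% of all genes). Of 31 FGF and ERK genes 2 were called, Fgf4 and Dusp6, both higher (0.044% of all genes). Spred1, which restrains Ras signalling, gave 0.94 (adjusted p = 0.217).

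Of 40 Wnt genes, Sfrp5 alone was called, and it was lower (0.044% of all genes). The receptor genes Fzd4 at -1.49 (adjusted p = 0.212) and Fzd7 at -0.61 (adjusted p = 0.474) were not called. The median of the Wnt genes was -0.20, against -0.10 over all genes. Where each array was centred on its median it was 0.14, against 0.24 over all genes. Among 28 Sox and stem cell chromatin genes the call was Sox4, downwards (0.044% of all genes). The median of that list was 0.21, and Tet1, which oxidises 5-methylcytosine, gave 0.75 (adjusted p = 0.217). None of 20 cholesterol synthesis genes was called, with a median of 0.33 and 0.24 to 0.36 in single runs, and none of 27 glycolysis and hypoxia genes, with a median of 0.29. Pdk1, a kinase that restrains pyruvate dehydrogenase, gave 0.80 (adjusted p = 0.295). Endoderm (36 genes, median 0.11) and basement membrane lists (33 genes, median 0.10) held no call, and their medians without KO_vehicle replicate 3 were -0.03 and 0.02. Without that array the median was 0.07 for the FGF and ERK genes, -0.12 for the Wnt genes, 0.11 for the Sox and chromatin genes, 0.29 for cholesterol synthesis and 0.19 for glycolysis and hypoxia.

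**Figure D4:**
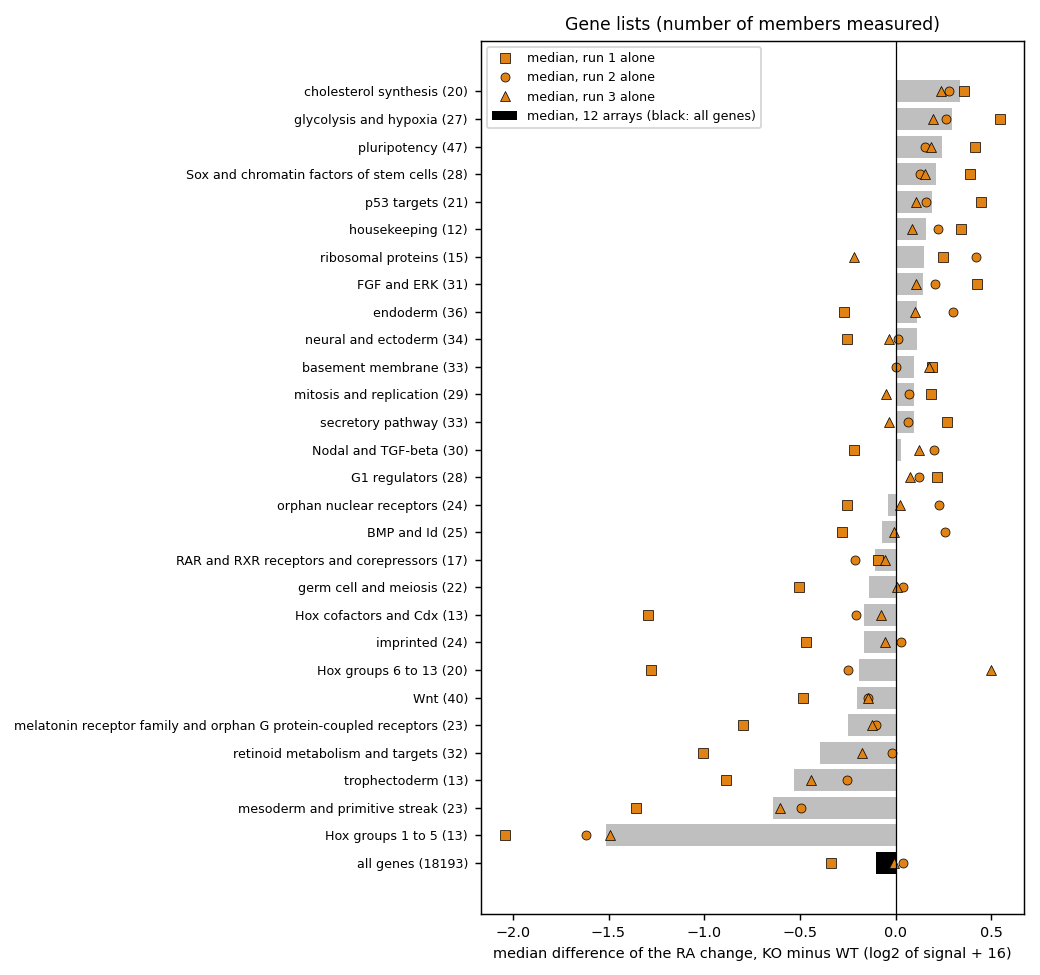
Median difference of the RA change (log2 of signal + 16, KO minus WT) of each gene list as bars, and in each run alone as orange symbols; numbers in brackets are members measured. Hox groups 1 to 5 lie lowest in the 12-array fit at -1.51 and in every run (-2.04, -1.62 and -1.49), and the median of all genes (black) is -0.10 but -0.34 in run 1.

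RA was called for 90 genes in knockout (0.495%) and 610 in wild type (3.35%), and for 72 genes in both, of which 59 rose in both, 12 fell in both and 1, Lifr, moved in opposite directions. For 53 of the 72 the 95% interval of the difference lay within 1 on either side of 0. The 72 were selected as called in both genotypes, which favours like changes, and the 8 genes named next were chosen from those 53, so these values are a description. Stra8, a gene needed for entry into meiosis that RA induces, had 13635, 12424 and 12864 in KO_RA and 3071, 2958 and 3594 in KO_vehicle, against 9359.6, 9753 and 14701 in WT_RA and 1513, 1723 and 2255 in WT_vehicle, and a difference of -0.59 with a 95% interval of -0.96 to -0.22. The RA groups overlapped and stood far above both vehicle groups. Aqp3, a water and glycerol channel, gave -0.38, and Dusp9, a phosphatase of mitogen-activated protein kinases, gave 0.18. The differences of Actn2, Nrip1, Tmtc1, Cidea and Tnfrsf19 were -0.17, -0.58, -0.32, -0.11 and 0.07. The unadjusted intervals of Stra8 and Nrip1 (-0.98 to -0.18) did not reach 0, and those of the other 6 held it.

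Genes called for the mean RA change over both genotypes, a contrast orthogonal to the difference in this balanced fit, numbered 663 of 18193 (3.64%). For the 413 raised on average, the median RA change was 0.48 in knockout and 0.69 in wild type, and the median difference was -0.22 (quartiles -0.50 and 0.06). For the 250 lowered on average, the median change was -0.34 in knockout and -0.71 in wild type, and the median difference was 0.43 (quartiles 0.22 and 0.62). Single runs gave -0.26, -0.26 and -0.15 for the raised genes and 0.63, 0.34 and 0.32 for the lowered ones. Over all genes the same runs gave -0.34, 0.04 and -0.01, so in run 1 the raised genes were not below all genes. Without KO_vehicle replicate 3, where the fit is not balanced, the genes called anew were 418 raised and 301 lowered. Their median differences were -0.19 and 0.29, against -0.02 over all genes. In the balanced fit, the median over all genes was -0.10. Under centring of each array on its median, the genes called anew were 148 raised and 45 lowered. These other sets had median differences of -0.07 and 1.08, against 0.24 over all genes.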

How the data were processed

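RNA of 12 F9 samples, 3 in each of 4 groups, was hybridized to Affymetrix arrays of the mouse genome. What the authors deposited was MAS5 signal, an intensity on a linear scale, per the submitters' processing notes. Judging by the values, each array was scaled to a mean of 500 after 2% of probe sets were trimmed at each end. The MAS5 version is not given in the sources used here. The deposited experiment files hold other, non-expression fields (chip lot and times of hybridization and scan), which served to find batches: arrays that shared a hybridization time count as 1 fluidics run.

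Of 45101 probe sets 64 controls were left out. The model was fitted to log2(signal + 16) by lmFit and eBayes (intensity trend) of limma 3.58.1, under R 4.3.3. It had 4 groups, the run as a fixed term, 6 degrees of freedom left for the residuals and Benjamini-Hochberg adjustment over 45037 probe sets. Fitted values understate the change of low signals. The platform annotation gave 34945 probe sets 1 symbol, 932 several and 9160 none. Symbols were updated through gene identifiers to RefSeq. For gene counts and gene lists, the brightest probe set of each gene by mean log2 signal was used. Called genes were described by their called probe sets. The genes next in order of p were taken by their probe set with the smallest p. Background was set at a signal of 88.3, the 95th percentile of the values of 86 probe sets of sensory receptors. Folds are ratios of group mean signals, and where a group mean was below that level, the level stands in its place and the fold is a bound. The 31 gene lists asked for 768 symbols and matched 705, 9 through an older name. Lists share members.

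Named were all called genes, Rarg, Tdgf1, Gpr50, Fgf4 and Sox4, the 10 next genes by p, up to 3 members of each list by smallest p, and up to 8 genes called for RA in both genotypes with an interval of the difference within 1. Further list members named in the text (Hoxb1, Hoxa5, Cyp26a1, Eras, Otx2, Fzd7 and Tet1 among them) were chosen after their values were seen. The members and lists were chosen with earlier results of these data known. The fit was tested on simulated data. Replicate numbers follow the order of deposition. The number of arrays limits the precision.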

Additional observations from a re-analysis of the deposited data

Results flagged for a closer look

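For 22 probe sets the test of the difference itself passed in the fit of 12 arrays with the run as a block. Of these 22 calls, 2 were kept without KO_vehicle replicate 3, and other fits called 0 with no run block, 0 with no intensity trend, 2 with the run as a random block and 1 with each array centred on its median. The differences (knockout minus wild type, log2 of signal + 16, limma, n = 3 arrays a group) were higher for Tdgf1 at 1.31, Lgals3 at 1.42, Fgf4 at 1.09, 1420565_at at 1.33, Utf1 at 1.02, 1444292_at at 1.17, Prorp at 1.08, Pcbd1 at 1.59, Dusp6 at 1.00 and Tcea3 at 1.11. They were lower for 1420603_s_at at -2.17, Gpr50 at -5.71, Lifr at -1.13, Pla2g7 at -1.84, Tbca at -2.37, Esyt3 at -1.65, 1455002_at at -1.16, Sfrp5 at -2.59, Pik3r1 at -1.36, Sox4 at -1.02 and Slc26a2 at -1.30 and -1.14. Adjusted p lay between 0.00188 for Tdgf1 and 0.0453 for Tcea3. Each had its sign in all 3 runs.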

How the results depend on the processing

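The fit called 22 probe sets, 10 higher and 12 lower. All 22 kept their direction in each alternative that tested them (16 of them with 1 probe set per gene), and the alternatives moved how many passed. All 22 also kept their call with the title code type (letter or number) as a block, with a pseudocount of 1 and with array weights. With no run block 0 passed (0 higher, 0 lower), and the same held with no intensity trend (0, 0 and 0). The run as a random block gave 2 (1 higher, 1 lower), the chip lot as a block 1 (0 and 1), no run block without KO_vehicle replicate 3 gave 1 (0 and 1), and centring each array on its median 1 (0 and 1). The number-coded runs alone gave 11 (6 and 5), quantile normalization 7 (4 and 3), probe sets above background 12 (6 and 6) and array weights 50 (20 and 30). A pseudocount of 64 gave 26 (7 and 19), without 4 of the 10 higher ones: 1420565_at (adjusted p = 0.118), Pcbd1 (0.0955), Dusp6 (0.0524) and Tcea3 (0.0731). Thresholds of 0.01 and 0.1 gave 4 (2 and 2) and 43 (17 and 26). The causes of these moves were not tested. Leaving out 1 array gave 2 to 18 calls, 1 to 7 higher and 1 to 11 lower, with the fewest without KO_vehicle replicate 3. Added after the data were seen, centring on bright probe sets gave 22 (13 and 9), and the number-coded runs with probe sets above background gave 26 (11 and 15). The difference of Rarg, near 0, changed sign with the chip lot as a block (0.144), in the number-coded runs (0.063, also among probe sets above background), under median centring (0.297), under centring on bright probe sets (0.0563) and between fits without 1 array (-0.24 to 0.22). The median difference over all probe sets was -0.16 as deposited, 0.02 after quantile normalization and 0.18 after median centring, so gene list medians are read against that of all genes. Values below a signal of about 88.3 are limited by background.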
